A study of Mus musculus with 8 samples.

Results

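The genes of glycolysis, lactate handling, the pentose phosphate pathway and glycogen metabolism were compared in the brainstem of mice that lack Ndufs4 in neurons expressing Vglut2. The members are 35 mouse genes listed by function, and their probes were found by annotated gene symbol. Of the 35 genes, 30 had a probe and 26 had at least 1 probe that could be tested. These genes had 45 of the 25697 probes on the array, of which 37 entered the comparison among 15225 tested probes.

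Brainstem RNA came from 4 Vglut2:Ndufs4cKO mice at a late stage of disease and 4 Vglut2:Ndufs4cCT mice, all older than postnatal day 68. Each mouse had 1 Illumina MouseRef-8 v2 array. Mice of both groups carried the Slc17a6-Cre transgene, which drives Cre recombinase from the gene for the vesicular glutamate transporter Vglut2, on a C57/BL6J background. The Vglut2:Ndufs4cKO mice had 1 deleted and 1 floxed Ndufs4 allele, and the Vglut2:Ndufs4cCT littermates had a floxed and a wild-type allele. The deleted allele was therefore present in every cell of the Vglut2:Ndufs4cKO mice, while recombination of the floxed allele was limited to cells with Cre. The samples were whole tissue, so fewer cells of a type and less RNA per cell cannot be told apart. The 4 Vglut2:Ndufs4cCT arrays occupied the first positions of the single beadchip and the 4 Vglut2:Ndufs4cKO arrays the last, so any effect of position cannot be told apart from that of genotype.

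Of the 4 probes for Ndufs4, ILMN_1234521 gave log2 signals of 11.19 to 11.72 in Vglut2:Ndufs4cKO and 12.31 to 13.35 in Vglut2:Ndufs4cCT mice, a difference of -1.41 (limma adjusted p = 0.0228). The other 3 did not pass the test, with differences of -0.20, -0.14 and -0.14 and overlapping groups. They include the brightest, ILMN_2900025 (-0.14, limma adjusted p = 0.869). The paper describes a floxed exon of Ndufs4, and where the 4 probes lie relative to that exon was not determined. As evidence of the deletion, the paper reports western blots of NDUFS4 protein in olfactory bulb and thalamus. Between 14720 and 15042 probes were detected on the Vglut2:Ndufs4cKO arrays and between 14293 and 14723 on the Vglut2:Ndufs4cCT arrays. The median deposited intensity of probes near background was 182.2 to 186.1 on the Vglut2:Ndufs4cKO arrays. It was 187.9 to 205.5 on the Vglut2:Ndufs4cCT arrays, without overlap. Of 10 brainstem markers, 9 had a probe and all 9 were detected well enough to be tested. Of 6 cerebellum markers, 4 were tested. Pcp2, Cbln1 and Zic1 were highest of all mice in Vglut2:Ndufs4cKO replicate 4 (log2 signals of 10.17, 13.30 and 12.31), and Pvalb was not. Gabra6 was detected on that array only (8.09), and Calb1 on 0 arrays. The 1 tested forebrain marker, Ppp1r1b, was also highest there (12.15). Whether the dissection differed between mice was not tested.

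Glycolysis splits glucose into pyruvate and yields ATP without oxygen. Pyruvate then enters mitochondria or is reduced to lactate, which restores the NAD+ that glycolysis consumes. Ndufs4 encodes an accessory subunit of complex I, the respiratory chain enzyme that oxidises NADH, and tissue without complex I activity is known to lean on glycolysis and to release lactate. In brain, glycogen is stored mainly in astrocytes, and the pentose phosphate pathway branches from glucose 6-phosphate to make NADPH and ribose.

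Among the members, the hexokinase gene Hk3 was higher in Vglut2:Ndufs4cKO mice and passed the test, and no other member passed. This depended on the processing, since Hk3 did not pass under 3 of 19 alternative settings and Hk2 passed under 7 of 19. Of 37 member probes, 1 passed an adjusted p of 0.05 as higher in Vglut2:Ndufs4cKO mice and 0 passed as lower (limma), where 0.67% of all tested probes were higher and 0.0328% were lower. Without adjustment (p under 0.05), 3 member probes were higher and 0 lower, against 6.86% and 3.02% of all tested probes. In 2 member probes all Vglut2:Ndufs4cKO values lay above all Vglut2:Ndufs4cCT values, and in 0 all lay below, against 4.01% and 1.79% of all tested probes. With each gene represented by its brightest tested probe, 12 of 26 members had a positive and 14 a negative log2 fold change. Their median was -0.01, and the median over all 10427 tested genes was 0.02. The 95% interval of the change lay within 0.5 log2 units of no change for 16 of the 26 members (61.5%), as for 44.8% of all tested genes. A log2 fold change under 0.25 in size was found in 18 of the 26 members and in 7587 of all 10427 tested genes.

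**Figure D1:**
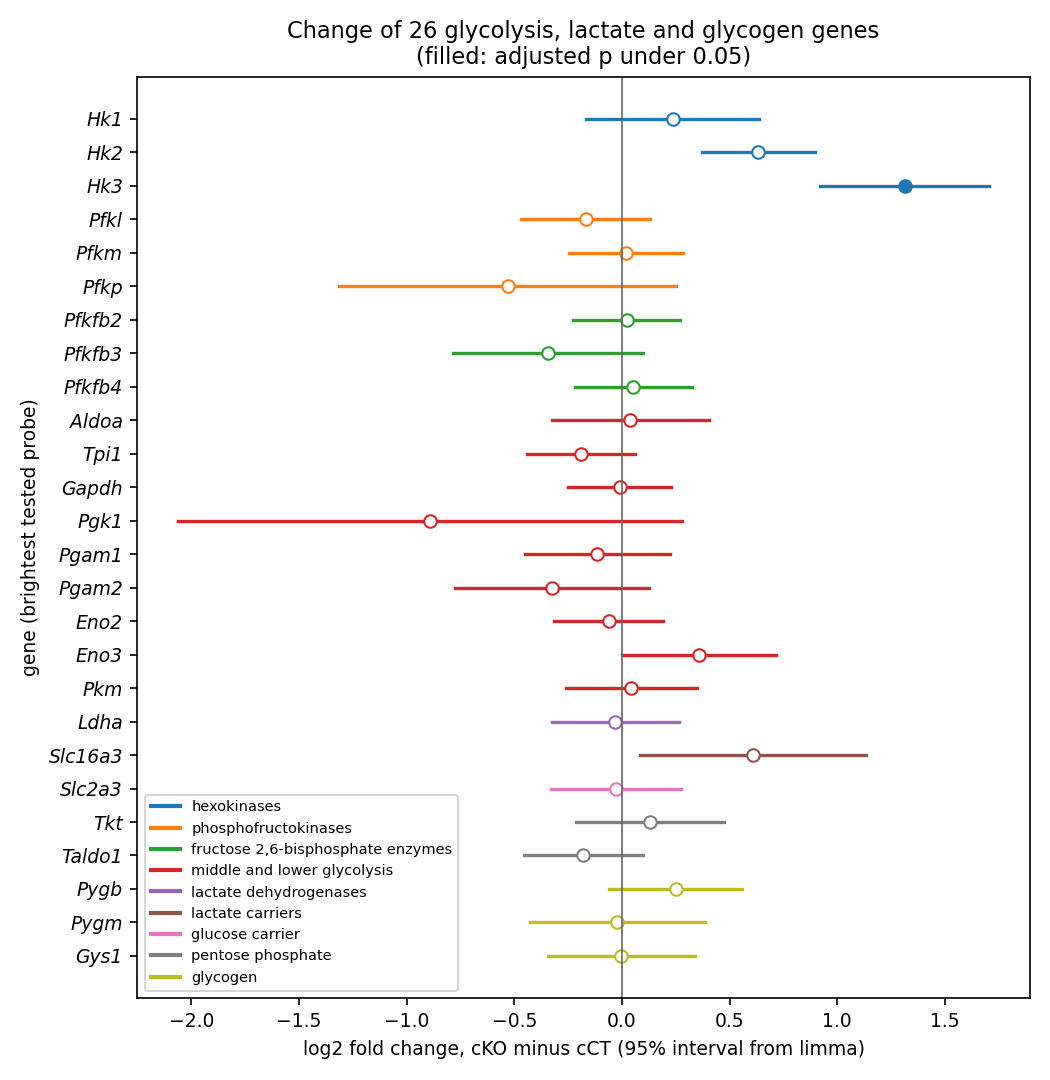
Log2 fold change (horizontal axis, Vglut2:Ndufs4cKO minus Vglut2:Ndufs4cCT, from 4 mice each) with its 95% interval from limma for the 26 tested members (vertical axis), coloured by role. Hk3 at 1.31 is the only filled point (adjusted p under 0.05), Hk2 follows at 0.63, and the widest interval belongs to Pgk1.

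Hexokinases phosphorylate glucose and so trap it in the cell. Hk1 is the main isozyme of brain, Hk2 is the inducible form known from muscle, fat and activated immune cells, and Hk3 is best known from myeloid blood cells. Hk3 and Hk2 had the smallest p-values of all members, and their promoters are shown for that reason, to place the measured genes beside the sequence at their start. Each window runs 250 bases before to 50 bases after the start in RefSeq (GRCm38.p6), both on the minus strand, Hk2 at chr6:82774405-82774704 and Hk3 at chr13:55021336-55021635. Capitals mark matches on either strand to the hypoxia response core (ACGTG, read as CACGT on the other strand) or the PU.1 core (GAGGAA, read as TTCCTC).
Hk2: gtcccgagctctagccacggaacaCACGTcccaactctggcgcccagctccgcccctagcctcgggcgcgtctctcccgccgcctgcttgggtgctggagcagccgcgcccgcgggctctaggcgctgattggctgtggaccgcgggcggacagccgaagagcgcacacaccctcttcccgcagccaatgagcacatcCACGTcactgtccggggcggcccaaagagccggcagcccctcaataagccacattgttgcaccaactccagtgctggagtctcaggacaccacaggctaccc
Hk3: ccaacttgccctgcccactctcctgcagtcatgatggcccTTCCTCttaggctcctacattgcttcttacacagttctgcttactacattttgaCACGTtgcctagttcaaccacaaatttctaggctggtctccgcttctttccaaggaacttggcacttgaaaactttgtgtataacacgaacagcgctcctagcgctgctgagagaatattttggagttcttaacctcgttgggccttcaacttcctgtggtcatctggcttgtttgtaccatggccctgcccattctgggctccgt
The Hk2 window held 2 matches to the hypoxia response core and 0 to the PU.1 core, and the Hk3 window held 1 of each. ACGTG also lies within the E-box CACGTG, so a match does not name a factor. Among all 32851 promoter windows in RefSeq, 19.6% held the hypoxia response core and 28.3% the PU.1 core. Of the 33 members with a window, 18 held the hypoxia response core (54.5%, against 21.8% of all genes) and 8 the PU.1 core (24.2%, against 31.3% of all genes). By window, 22 of the members' 47 held the hypoxia response core (46.8%). Of 15 tested members that held the hypoxia response core, 9 had a positive log2 fold change, with a median of 0.02 and a range from -0.89 to 1.31. In the 10 tested members whose windows did not hold it, 3 were positive and the median was -0.12. These are descriptions of letters in a window, and base composition was not compared. Whether the core bears on the changes was not tested.

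Hk3 had log2 signals of 7.39, 6.96, 7.15 and 6.76 in Vglut2:Ndufs4cKO replicates 1 to 4, and of 5.95, 5.43, 5.92 and 5.70 in Vglut2:Ndufs4cCT replicates 1 to 4. Every Vglut2:Ndufs4cKO mouse was above every Vglut2:Ndufs4cCT mouse, and the groups were separated by more than the range of either. The means were 7.06 ± 0.27 and 5.75 ± 0.24 (SD, n = 4 each). The difference was 1.31 on the log2 scale, with a standard error (SE) of 0.17, a limma adjusted p of 0.0142 and an exact permutation p of 0.0286 (two-sided), which is the lowest possible with 4 mice per group. The probe ILMN_3161013 was detected on all 4 Vglut2:Ndufs4cKO arrays but on only 1 of the 4 Vglut2:Ndufs4cCT arrays, so it entered the comparison through the group where it was high, and the size of the difference is taken against values close to background. It was 0.40 without background correction (adjusted p = 0.0756, limma) and 1.62 with an offset of 1 in place of 16 (adjusted p = 0.0179, limma), and without Vglut2:Ndufs4cCT replicate 4 it was 1.30 (adjusted p = 0.0531, limma).

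Hk2 had log2 signals of 9.57, 9.46, 9.60 and 9.40 in Vglut2:Ndufs4cKO mice and of 8.79, 9.07, 8.83 and 8.81 in Vglut2:Ndufs4cCT mice. The groups did not overlap, and Vglut2:Ndufs4cCT replicate 2 lay apart from the other control mice on the side of the Vglut2:Ndufs4cKO mice. The log2 fold change was 0.63 (SE 0.12, 1.55-fold), with a limma adjusted p of 0.0509 that fell just short of the threshold and an exact permutation p of 0.0286. Under 7 of 19 alternative settings Hk2 passed, with adjusted p-values from limma between 0.0135 and 0.294 over all of them, and without Vglut2:Ndufs4cKO replicate 4 its log2 fold change was 0.67 (adjusted p = 0.0306, limma).

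Hk1 did not separate the groups, with log2 signals of 10.33, 10.17, 9.77 and 9.86 in Vglut2:Ndufs4cKO mice and of 9.51, 9.63, 10.09 and 9.96 in Vglut2:Ndufs4cCT mice. Replicates 1 and 2 were high and replicates 3 and 4 low in Vglut2:Ndufs4cKO mice, and the reverse held in Vglut2:Ndufs4cCT mice. Its log2 fold change was 0.24 with a 95% interval from -0.17 to 0.64 (adjusted p = 0.706, limma). Whether the change differed between hexokinases was not tested. The plot of hexokinase signals by mouse shows the separation at Hk2 and Hk3 and the overlap at Hk1.

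**Figure D2:**
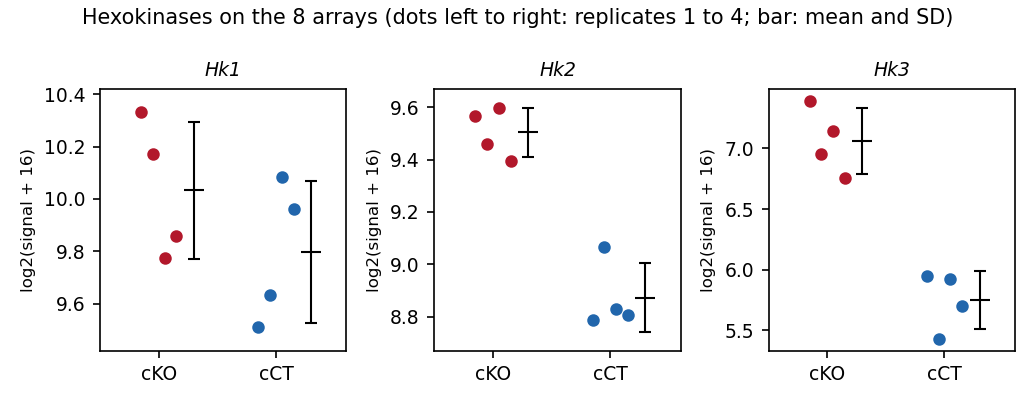
Log2 signal (vertical axis, own range per panel) of Hk1, Hk2 and Hk3 on each array, with Vglut2:Ndufs4cKO mice (cKO, red) left of Vglut2:Ndufs4cCT mice (cCT, blue) and the mean and SD of 4 mice beside them. All 4 cKO values lie above all 4 cCT values for Hk2 and Hk3, and the groups overlap for Hk1.

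Markers of microglia and macrophages were also examined. Of 10 such genes 7 had a probe and 6 were tested, with log2 fold changes between 0.16 for P2ry12 (adjusted p = 0.834, limma) and 1.26 for C1qa and a median of 1.04, and the probe for Itgam was detected on no array. Only C1qa, a complement component made by microglia, passed the test (adjusted p = 0.0195, limma), and 5 of the 6 were higher at an unadjusted p under 0.05. Of all 10427 tested genes, 0.777% were higher and 0.0288% lower at an adjusted p under 0.05, and 7.19% and 3.02% at an unadjusted one. The mean signal of the 6 tested microglia and macrophage markers was 853.8 to 1594.6 in Vglut2:Ndufs4cKO mice and 586.1 to 647.3 in Vglut2:Ndufs4cCT mice. Among reactive astrocyte genes 3 of 7 tested passed, with a median log2 fold change of 1.47 and mean signals of 1728.8 to 3405.6 in Vglut2:Ndufs4cKO mice and 773.7 to 1067.8 in Vglut2:Ndufs4cCT mice. General astrocyte markers had a median of 0.08 over 6 tested genes, 3 positive and 3 negative. Of these 0 passed and 1 was higher at an unadjusted p under 0.05 (limma). Neuron markers had a median of -0.09 over 9 tested genes, with 0 passing and 0 at an unadjusted p under 0.05 (limma). Neutrophil markers, of which 3 were tested, had a median of -0.57 with 0 passing, and Camp, at -0.95 (adjusted p = 0.158, limma), was lower without overlap. Red blood cell markers had a median of -0.53 over 3 tested genes and oligodendrocyte markers of -0.18 over 6, with 0 passing, and in each list 1 gene was lower without overlap, Slc4a1 at -1.55 (adjusted p = 0.327) and Cnp at -0.27 (adjusted p = 0.485, limma). Higher without overlap were 3 microglia and macrophage markers and 5 reactive astrocyte genes. Of all 10427 tested genes, 447 were higher and 212 lower without overlap. The part of the cell types named here in the hexokinase values was not tested.

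The phosphofructokinases, which commit sugar to glycolysis, did not pass the test at any of 8 probes, but probes of the same gene gave different answers. For Pfkm, the muscle-type subunit that is also abundant in neurons, the brightest probe ILMN_2628892 had log2 signals of 14.68, 14.72, 14.58 and 14.87 in Vglut2:Ndufs4cKO mice and of 14.62, 14.71, 14.84 and 14.60 in Vglut2:Ndufs4cCT mice, a log2 fold change of 0.02 (95% interval from -0.25 to 0.28). A dimmer probe for the same gene, ILMN_1252214, had 9.14, 8.63, 7.50 and 10.69 in Vglut2:Ndufs4cKO mice and 9.77, 9.97, 10.20 and 9.82 in Vglut2:Ndufs4cCT mice. At that probe the 4 control mice lay close together, and the 4 Vglut2:Ndufs4cKO mice spread to both sides of them, with replicate 3 lowest and replicate 4 highest of all 8. Its log2 fold change was -0.95 (SE 0.54, limma adjusted p = 0.617), with an SD of 1.33 in Vglut2:Ndufs4cKO and 0.20 in Vglut2:Ndufs4cCT mice. The Pfkm probe ILMN_3004553 had 13.55, 13.58, 13.56 and 13.39 in Vglut2:Ndufs4cKO mice and 13.32, 13.30, 13.59 and 13.36 in Vglut2:Ndufs4cCT mice, a log2 fold change of 0.13.

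Probes for Pfkp, the platelet-type subunit, also differed among themselves. At its brightest probe, ILMN_1237695, the log2 signals were 11.76, 11.36, 10.79 and 12.58 in Vglut2:Ndufs4cKO mice and 11.66, 12.22, 12.57 and 12.15 in Vglut2:Ndufs4cCT mice, a log2 fold change of -0.53 (SE 0.35, limma adjusted p = 0.662). At ILMN_2673233 they were 9.05, 8.54, 7.68 and 10.68 in Vglut2:Ndufs4cKO mice and 10.02, 9.95, 10.17 and 9.82 in Vglut2:Ndufs4cCT mice. Replicates 1 to 3 of Vglut2:Ndufs4cKO were below all control mice there and replicate 4 was above them, and the log2 fold change was -1.00 (SE 0.52, limma adjusted p = 0.579). Without Vglut2:Ndufs4cKO replicate 4 this probe passed, with a log2 fold change of -1.57 (adjusted p = 0.0321, limma), and without replicate 3 it had -0.57 (adjusted p = 0.965, limma). The third Pfkp probe, ILMN_2807702, had 6.68, 7.15, 7.54 and 6.58 in Vglut2:Ndufs4cKO mice and 6.47, 7.02, 7.11 and 6.97 in Vglut2:Ndufs4cCT mice. Here the order of Vglut2:Ndufs4cKO mice was turned round, with replicate 3 highest, and the log2 fold change was 0.09. Pfkl, the liver-type subunit, had log2 fold changes of -0.17 and 0.01 at its 2 probes.

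The probes of Pfkp differed by 1.10 and those of Pfkm by 1.08 in log2 fold change, and 2 of 7 members with over 1 tested probe (28.6%) differed by over 0.5, against 409 of 2803 such genes on the array (14.6%). The order with Vglut2:Ndufs4cKO replicate 4 highest and replicate 3 lowest of all 8 mice, noticed after the values were seen, was found in 7 of 37 member probes (18.9%), from Pfkm, Pfkp, Pgk1, Eno2 and Slc2a3, and in 1197 of all 15225 tested probes (7.86%). The plot of probes by mouse shows this order.

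**Figure D3:**
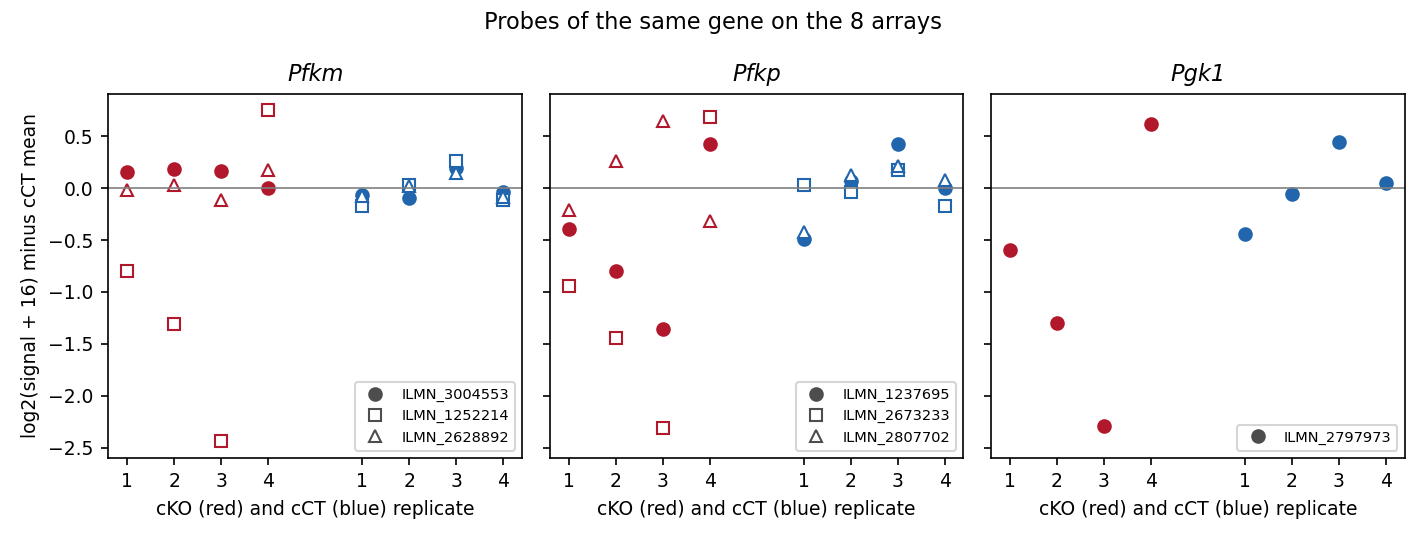
Log2 signal minus the mean of the 4 Vglut2:Ndufs4cCT mice (vertical axis) for each tested probe (marker shape) of Pfkm, Pfkp and Pgk1, by mouse (horizontal axis, cKO red and left of cCT blue). At ILMN_1252214, ILMN_1237695, ILMN_2673233 and ILMN_2797973 the cKO mice spread from replicate 3, lowest, to replicate 4, highest, while the other Pfkm probes spread by less and cKO replicate 3 is highest at ILMN_2807702.

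The enzymes that make and remove fructose 2,6-bisphosphate, a strong activator of phosphofructokinase, did not pass the test. Pfkfb3, which favours its synthesis, was detected on 4 of 8 arrays, with log2 signals of 5.34, 5.70, 5.82 and 6.04 in Vglut2:Ndufs4cKO mice and of 5.63, 6.10, 6.37 and 6.17 in Vglut2:Ndufs4cCT mice. The groups overlapped near background, and the log2 fold change was -0.35 (SE 0.20, limma adjusted p = 0.616). Pfkfb2 averaged 11.01 ± 0.10 and Pfkfb4 10.07 ± 0.16 in Vglut2:Ndufs4cKO mice, against 10.99 ± 0.08 and 10.02 ± 0.09 in Vglut2:Ndufs4cCT mice (log2 signal, SD, n = 4 each), with log2 fold changes of 0.02 and 0.05.

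Of the enzymes of the middle and end of glycolysis, 0 of 9 tested genes passed in either direction and 0 had an unadjusted p under 0.05 (limma). Gapdh, which makes the NADH of glycolysis, averaged 15.27 ± 0.19 in Vglut2:Ndufs4cKO and 15.26 ± 0.08 in Vglut2:Ndufs4cCT mice (log2 signal, SD, n = 4 each) at ILMN_1377924, a log2 fold change of 0.01. Its brighter probe ILMN_2588056 gave -0.01, but its deposited intensities of 60644 to 66105 in Vglut2:Ndufs4cKO and 64650 to 67281 in Vglut2:Ndufs4cCT mice lay near the top of the scale, where the highest probe of each array had 69774 to 71475, so a difference there may be compressed. Aldoa, an aldolase that splits fructose 1,6-bisphosphate, averaged 14.67 ± 0.28 in Vglut2:Ndufs4cKO and 14.63 ± 0.16 in Vglut2:Ndufs4cCT mice (0.04). Pkm, the pyruvate kinase of brain and muscle, averaged 15.00 ± 0.12 in Vglut2:Ndufs4cKO and 14.96 ± 0.20 in Vglut2:Ndufs4cCT mice (0.04). For these 3 genes the 95% interval of the log2 fold change lay within 0.5 of no change, at the dimmer Gapdh probe from -0.28 to 0.30. Pgam1, a phosphoglycerate mutase, had a log2 fold change of -0.11, and Eno2, the neuronal enolase, of -0.06.

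Tpi1 interconverts the triose phosphates. At its brightest probe, ILMN_1230137, its log2 signals were 14.97, 14.97, 14.90 and 14.88 in Vglut2:Ndufs4cKO mice and 14.94, 15.17, 15.22 and 15.15 in Vglut2:Ndufs4cCT mice. All but replicate 1 of the control mice were above every Vglut2:Ndufs4cKO mouse, and the log2 fold change was -0.19 (SE 0.11, limma adjusted p = 0.626). Its other 2 probes gave -0.13 and -0.06.

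Eno3 is the enolase best known from muscle. Its log2 signals were 8.57, 8.44, 8.34 and 7.98 in Vglut2:Ndufs4cKO mice and 7.87, 8.25, 7.97 and 7.84 in Vglut2:Ndufs4cCT mice. The groups overlapped through Vglut2:Ndufs4cKO replicate 4 and Vglut2:Ndufs4cCT replicate 2, and the log2 fold change was 0.36 (SE 0.16, limma adjusted p = 0.507). Of 8 skeletal muscle markers, 4 were detected on no array and the 3 tested had a median log2 fold change of 0.03.

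Pgk1, a phosphoglycerate kinase that makes ATP, had 1 dim probe, detected on 7 of 8 arrays. Its log2 signals were 6.77, 6.06, 5.06 and 7.98 in Vglut2:Ndufs4cKO mice and 6.92, 7.30, 7.81 and 7.40 in Vglut2:Ndufs4cCT mice. Replicate 4 of Vglut2:Ndufs4cKO was highest and replicate 3 lowest, as at the spread probes of Pfkm and Pfkp. The log2 fold change of -0.89 had a 95% interval from -2.06 to 0.28 (adjusted p = 0.623, limma), and it was -0.42 without Vglut2:Ndufs4cKO replicate 3 and -1.40 without replicate 4 (adjusted p = 0.985 and 0.0899, limma). Pgam2, the muscle-type mutase, was detected on 3 arrays and had 5.61, 6.36, 5.64 and 5.92 in Vglut2:Ndufs4cKO mice and 6.58, 6.06, 6.23 and 5.96 in Vglut2:Ndufs4cCT mice. Its groups overlapped, with a log2 fold change of -0.33 (adjusted p = 0.643, limma).

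Ldha, the lactate dehydrogenase subunit that favours lactate formation, did not separate the groups. Its log2 signals were 13.01, 12.78, 12.72 and 12.64 in Vglut2:Ndufs4cKO mice and 12.66, 13.01, 12.86 and 12.75 in Vglut2:Ndufs4cCT mice, and the highest values of both groups were alike. The log2 fold change was -0.03 with a 95% interval from -0.33 to 0.26 (adjusted p = 0.960, limma).

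Slc16a3, the lactate exporter MCT4 of astrocytes and other glycolytic cells, was the third member with an unadjusted p under 0.05. Its probe ILMN_3163569 had log2 signals of 6.89, 6.57, 6.25 and 6.57 in Vglut2:Ndufs4cKO mice and of 5.92, 6.61, 5.79 and 5.52 in Vglut2:Ndufs4cCT mice. Vglut2:Ndufs4cCT replicate 2 lay among the Vglut2:Ndufs4cKO mice and the other control mice lay below them. The log2 fold change was 0.61 (SE 0.23, p = 0.027 unadjusted and 0.425 adjusted, limma, with an exact permutation p of 0.114). This probe was detected on 4 Vglut2:Ndufs4cKO and 2 Vglut2:Ndufs4cCT arrays, so the size of the difference is taken against values close to background, and it was 0.15 without background correction (adjusted p = 0.716, limma). The other 2 probes for Slc16a3 were detected on 0 arrays. Probes for the lactate carriers Slc16a1 (MCT1, known from endothelium and oligodendrocytes) and Slc16a7 (MCT2, known from neurons) were detected on 0 arrays.

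Slc2a3, the glucose carrier GLUT3 of neurons, had log2 signals of 12.09, 12.17, 11.85 and 12.37 in Vglut2:Ndufs4cKO mice and of 12.19, 12.25, 12.07 and 12.09 in Vglut2:Ndufs4cCT mice. The control mice lay within the range of the Vglut2:Ndufs4cKO mice, and the log2 fold change was -0.03 (95% interval from -0.33 to 0.27). In the pentose phosphate pathway, Taldo1, a transaldolase, had 13.08, 13.10, 13.00 and 12.76 in Vglut2:Ndufs4cKO mice and 13.02, 13.25, 13.25 and 13.14 in Vglut2:Ndufs4cCT mice. Replicate 1 of the control mice lay among the Vglut2:Ndufs4cKO values, and the log2 fold change was -0.18 (SE 0.12, limma adjusted p = 0.672). Tkt, a transketolase, had log2 fold changes of 0.13, 0.11 and 0.06 at its 3 probes.

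Glycogen is broken down by glycogen phosphorylases and built by glycogen synthase. Pygb, the brain-type phosphorylase, had log2 signals of 13.38, 13.53, 13.47 and 13.03 in Vglut2:Ndufs4cKO mice and of 13.19, 12.99, 13.19 and 13.04 in Vglut2:Ndufs4cCT mice. Replicates 1 to 3 of Vglut2:Ndufs4cKO were above all control mice and replicate 4 was among them, and the log2 fold change was 0.25 (SE 0.14, limma adjusted p = 0.602). Pygm, the muscle-type phosphorylase, averaged 9.37 ± 0.17 in Vglut2:Ndufs4cKO and 9.39 ± 0.34 in Vglut2:Ndufs4cCT mice (SD, n = 4 each), with a log2 fold change of -0.02. Gys1, the glycogen synthase of tissues other than liver, gave log2 fold changes of -0.00 and -0.35 at 2 dim probes, with a 95% interval of -0.34 to 0.34 at the brighter of them.

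**Figure D4:**
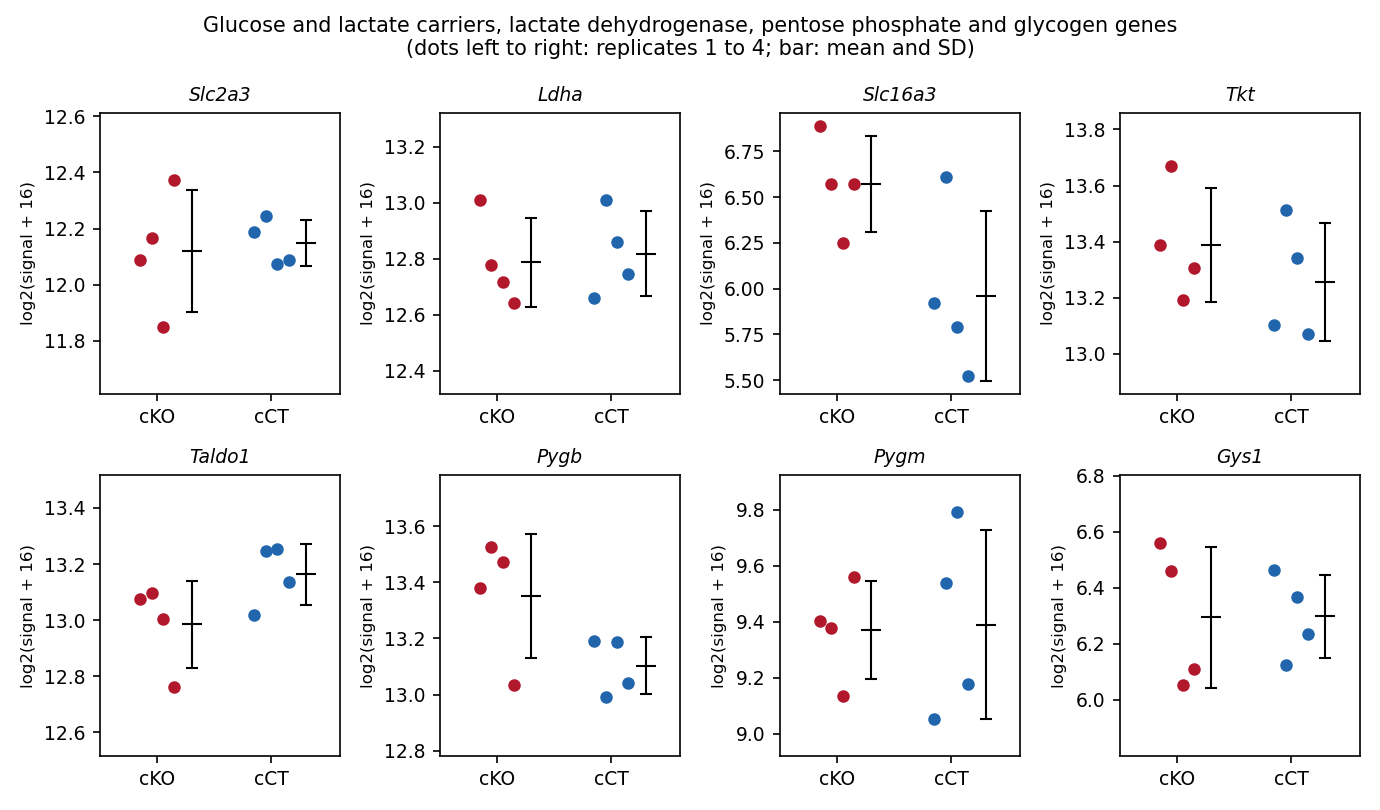
Log2 signal (vertical axis, own range per panel) on each array at the brightest tested probe of Slc2a3, Ldha, Slc16a3, Tkt, Taldo1, Pygb, Pygm and Gys1, with Vglut2:Ndufs4cKO mice (cKO, red) left of Vglut2:Ndufs4cCT mice (cCT, blue) and the mean and SD of 4 mice beside them. The groups overlap in every panel, and the largest difference of means is the 0.61 of Slc16a3.

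Of the 35 members, 9 gave no test. Gpi1, Eno1, Ldhb, G6pdx and Pgd had no probe under those symbols and were not analysed here. A probe for Eno1b, a near-identical copy of Eno1, had a log2 fold change of -0.13 (adjusted p = 0.814, limma). Slc16a1, Slc16a7, Gbe1 (the glycogen branching enzyme) and Pgm2 (a phosphoglucomutase) each had a probe that was detected on 0 arrays. An undetected probe does not show that the transcript is absent, since probes for Snap25, Nefl and Gad2, genes of neurons, were also detected on 0 arrays. Pgm2 was matched by its gene ID, since older annotations exchange the names Pgm1 and Pgm2, and the probe for the gene now called Pgm1 was detected on all 8 arrays, with a log2 fold change of 0.21 (adjusted p = 0.717, limma).

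Other genes of the same pathways were counted in the same way. Of 59 such genes, 50 had a probe and 36 were tested, with 0 passing in either direction (limma), while at an unadjusted p under 0.05 there were 3 higher (8.33%) and 1 lower (2.78%), against 7.19% and 3.02% of all tested genes, and a median log2 fold change of 0.09. Among these, the 6 tested glucose carriers had positive log2 fold changes, while that of the member Slc2a3 was -0.03, and 5570 of all 10427 tested genes were positive. Slc2a10 (GLUT10) had log2 signals of 7.40, 7.54, 7.75 and 6.72 in Vglut2:Ndufs4cKO mice and of 6.58, 6.50, 6.58 and 6.57 in Vglut2:Ndufs4cCT mice, with no overlap and a log2 fold change of 0.80 (adjusted p = 0.167, limma, and 0.0126 without Vglut2:Ndufs4cKO replicate 4). Slc2a4, the insulin-responsive carrier GLUT4, had 0.69 (adjusted p = 0.411, limma). Its probe was detected on 4 Vglut2:Ndufs4cKO and 2 Vglut2:Ndufs4cCT arrays, with values close to background and overlapping groups. Slc2a1, the GLUT1 of the blood-brain barrier and astrocytes, had 0.37 (adjusted p = 0.527, limma).

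Pygl, the liver-type phosphorylase, had log2 signals of 9.16, 8.99, 9.26 and 9.10 in Vglut2:Ndufs4cKO mice and of 8.82, 8.96, 8.45 and 8.58 in Vglut2:Ndufs4cCT mice. The groups did not overlap, by a small margin at replicate 2 of both, and the log2 fold change was 0.42 (adjusted p = 0.333, limma). Gaa, which digests glycogen in lysosomes, had 0.21 (adjusted p = 0.591, limma). Tigar, a phosphatase that lowers fructose 2,6-bisphosphate, had -0.43 (adjusted p = 0.483, limma), and Pgam5, a mitochondrial phosphatase named after the mutases, had -0.08. For lactate and pyruvate handling, the monocarboxylate carrier relative Slc16a6 had 0.39 (adjusted p = 0.632, limma) and the D-lactate dehydrogenase gene Ldhd 0.25. In the pentose phosphate pathway, H6pd, which works in the endoplasmic reticulum, had 0.29 (adjusted p = 0.632, limma) and Rpia, an isomerase of ribose 5-phosphate, -0.17. Adpgk, an ADP-dependent glucokinase, and G6pc3, a glucose 6-phosphatase, had -0.01 and 0.01.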

How the data were processed

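Brainstem RNA of 4 Vglut2:Ndufs4cKO and 4 Vglut2:Ndufs4cCT mice was amplified and hybridised to Illumina MouseRef-8 v2 arrays. The authors deposited probe intensity with a detection p-value for each array before normalization, and a table of signals after average normalization in GenomeStudio (version not given in the sources used here), used as an alternative. R 4.3.3, limma 3.58.1 and statmod 1.5.0 were used. Intensities were background-corrected (normexp, from the detection p-values), scaled to equal array means, raised by 16 and log2-transformed, so folds of dim probes are understated. Probes with detection p under 0.05 on at least 3 of 8 arrays were tested with lmFit and eBayes, with Benjamini-Hochberg adjustment over 15225 probes. The custom error model of the study was not repeated. A gene's value is its brightest tested probe. Values are given by mouse for members that passed or whose groups did not overlap, and for up to 12 members in all by smallest p, for members whose probes differed by over 0.5, and for Ldha and Slc2a3, chosen after their values were seen. Members and lists were chosen with earlier results of these data known. Probe symbols came from GEO's platform annotation: 23978 probes had 1 symbol and 1719 had none. Median bead counts of 34 to 37 per probe and 4 arrays per group limit precision. The labels do not tie mice to litters. The test was checked on simulated data with independent arrays and equal spread in both groups. Changes were added there to brighter probes only, so the check does not cover dim probes or unequal spread. Alternatives were offsets of 1 and 50, quantile normalization, uncorrected background, the deposited normalized table, other filters, a variance trend, array weights, a replicate block, the mean of a gene's probes and each array left out.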

Additional observations from a re-analysis of the deposited data

Results flagged for a closer look

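In 4 of 74 groups of 4 arrays, at the 37 tested member probes, 1 array lay far from the other 3, where chance gives about 1 in 20 groups. For Hk2, Vglut2:Ndufs4cCT replicate 2 had a log2 signal of 9.0673, against 8.7886 to 8.8270 in the other control mice, which narrowed the gap between the groups. For Pfkm at ILMN_3004553, Vglut2:Ndufs4cKO replicate 4 had 13.3941, against 13.5510 to 13.5783 in the other Vglut2:Ndufs4cKO mice. For Gapdh at ILMN_2588056, Vglut2:Ndufs4cCT replicate 1 had 15.8436, against 16.0252 to 16.0391 in the other control mice, but its deposited intensity of 67281 was the highest of the 4 and near the top of the scale, and its scale factor of 0.876 the lowest of the 8, so before scaling this mouse was not low. For Gys1 at ILMN_2658554, a dim probe, Vglut2:Ndufs4cKO replicate 3 had 5.1994, against 5.8815 to 5.9685 in the other Vglut2:Ndufs4cKO mice.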

How the results depend on the processing

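Over 19 alternative settings the direction held, wherever the probe could be tested, for 15 of 16 named member results, the exception being the dim Pfkp probe ILMN_2807702, whose log2 fold change was -0.089 without Vglut2:Ndufs4cKO replicate 3 and -0.046 without Vglut2:Ndufs4cCT replicate 1, in a range from -0.089 to 0.23 with 1 array left out. Hk3 did not pass without background correction, without Vglut2:Ndufs4cCT replicate 4 or with a replicate block (1.31, adjusted p = 0.0552, limma). Without background correction Hk2 passed in its place (0.47, adjusted p = 0.0474, limma). Array weights gave 213 higher and 27 lower probes in all and 2 higher members. Members higher were also 2 with an offset of 50 (3 probes lower in all), with a stricter filter (each array of either group detected at 0.01), with a variance trend and with the mean of a gene's probes, the second being Hk2 each time. With 1 array left out, 30 to 234 probes were higher and 0 to 123 lower, and 0 to 2 member probes were higher and 0 to 1 lower, with the most calls without Vglut2:Ndufs4cKO replicate 4. The replicate block gave 11 higher and 0 lower probes and 0 member probes higher; same-numbered mice correlated between -0.26 and -0.19 and 0 of 4 correlated best with their own number, so the number was not used to pair them. The cause of these shifts was not tested. Members near background (Hk3, Slc16a3, Pfkfb3, Pgk1, Pgam2, Gys1) were not detected on every array at every tested probe, and the widest interval at a gene's brightest probe was that of Pgk1.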
